A study of Mus musculus with 12 samples.

Results

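The 10 genes described here encode classical cadherins and the catenins that bind them: *Cdh1*, *Cdh2*, *Cdh3*, *Cdh4*, *Cdh11*, *Cdh20*, *Ctnna1*, *Ctnnd1*, *Ctnnd2* and *Jup*. They were chosen by symbol, with earlier results of these data known, 6 cadherins and 4 catenins out of 23086 gene rows in the count table. Their RNA was measured in embryoid bodies, aggregates grown for 2 days from A2lox.cre mouse embryonic stem cells. In such cells a gene placed in a cassette next to *Hprt* is switched on by doxycycline. MUTD16 embryoid bodies carried a mutant form of FLAG-*Lhx1* and received doxycycline for 16 h, and MUTC16 embryoid bodies carried the same mutant transgene without doxycycline. WTD16 embryoid bodies carried wild-type FLAG-*Lhx1* and received doxycycline for 16 h, and WTC16 embryoid bodies were their untreated controls. Each group had 3 libraries, and each form of the transgene was present in 1 labelled line. The labels do not describe the mutant's change. They do not say whether replicates were separate cultures either, so the p-values below speak of the variation among these libraries, part or all of which may be technical.

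Classical cadherins are transmembrane proteins that join neighbouring cells through calcium-dependent binding between their extracellular domains. Inside the cell their tails hold p120-catenin near the membrane and β-catenin or plakoglobin further along, and α-catenin links these to actin. E-cadherin (*Cdh1*) holds the epiblast and most epithelia together. In gastrulation its loss, and a gain of N-cadherin (*Cdh2*), accompany the passage of cells through the primitive streak. LHX1 is a LIM homeodomain transcription factor of the head organizer.

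The libraries held 4289984 to 4850393 counts. Levels are given as CPM, the counts over the TMM-adjusted library total, with the SD of 3 libraries. *Lhx1* averaged 248 ± 12.6 CPM in MUTD16 and 0.421 ± 0.0124 CPM in MUTC16 embryoid bodies, and 296 ± 9.37 CPM in WTD16 and 2.09 ± 1.13 CPM in WTC16 embryoid bodies. Its reads do not tell transgene from endogenous gene. A pair of libraries stood apart from their groups. The ribosomal RNA precursor *Rn45s* took 1.45% of counts in WTD16 replicate 2, against 0.0884% to 0.265% in the other 11 libraries. The hypoxia-induced gene *Bnip3* reached 229 CPM in WTC16 replicate 3, against 58.5 and 63.3 CPM in its group. Results that change without this pair are given with and without it.

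Levels set the scene for these genes. Set per kilobase of exon, which allows genes to be compared, *Cdh1* stood far above the other members in every group, at 172 ± 3.63 CPM per kb in MUTD16, 174 ± 3.20 in MUTC16, 174 ± 2.17 in WTD16 and 178 ± 1.59 in WTC16 embryoid bodies. *Ctnna1*, αE-catenin, came next at 55.1 to 66.9 CPM per kb over the group means. *Ctnnd1*, p120-catenin, which keeps cadherins at the surface, followed at 34.8 to 45.4 CPM per kb, and *Jup*, plakoglobin, a relative of β-catenin that also serves desmosomes, at 16.9 to 20.8. *Cdh3*, P-cadherin, and then *Cdh2* came next in every group. The other members lay at or below 1.47 CPM per kb. At this low end *Cdh4* (0.858 ± 0.138) and *Ctnnd2* (0.791 ± 0.0945) did not differ beyond their spread in MUTC16 embryoid bodies, nor did the same pair in MUTD16 embryoid bodies (1.01 ± 0.0591 and 0.869 ± 0.168). *Cdh20* and *Cdh11* overlapped in MUTD16 (0.214 ± 0.113 and 0.302 ± 0.0190), WTD16 (0.876 ± 0.221 and 0.825 ± 0.0448) and WTC16 embryoid bodies (0.0791 ± 0.137 and 0.188 ± 0.0552). In MUTC16 embryoid bodies *Cdh20* (0.121 ± 0.0758) lay below *Cdh11* (0.290 ± 0.0854) in every library, and in WTD16 embryoid bodies *Ctnnd2* was lowest at 0.579 ± 0.0650.

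**Figure D1:**
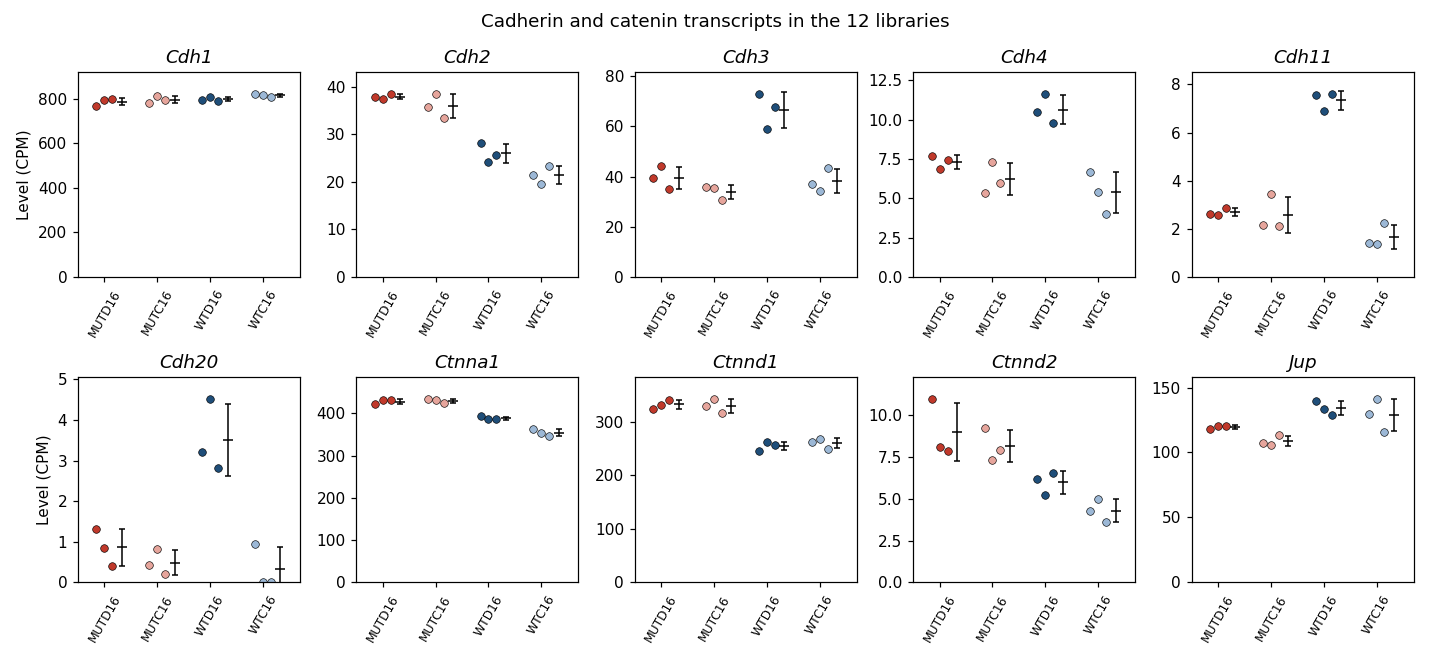
Level of each member in CPM (vertical axes, linear, starting at 0) in the 3 libraries of each group (points), with the mean and SD beside them (a bar that would pass below 0 is cut at the axis). *Cdh3*, *Cdh4*, *Cdh11* and *Cdh20* are highest in the WTD16 libraries, *Cdh2*, *Ctnna1*, *Ctnnd1* and *Ctnnd2* are higher in both mutant groups than in either wild-type group, and *Cdh1* lies between 767 and 821 CPM in all 12 libraries.

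All 10 members passed the filter on low counts, which asked for 2.18 CPM in at least 3 libraries. *Cdh20* reached that level only in the WTD16 libraries, so its passing already required a high value there. *Cdh11* reached it in every MUTD16 and WTD16 library, and in 1 MUTC16 and 1 WTC16 library.

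With doxycycline the wild-type line had more RNA of 4 cadherins while its main cadherin, *Cdh1*, was not called, with a fold change of 0.979. *Cdh3*, *Cdh4*, *Cdh11* and *Cdh20* rose, *Ctnna1* rose slightly, and no member fell. Of 10 members 5 were called, beside 5.32% of the 12322 genes tested. A call is a Benjamini-Hochberg adjusted p under 0.05 in edgeR. The members were chosen with earlier results of these data known, so these shares do not test the family. Without *Cdh20*, 4 of the other 9 members were called. The median log2 fold change was 0.38 over all 10 members, *Cdh20* included, and −0.003 over all genes tested. Leaving out the pair of libraries that stood apart, the calls of *Cdh3* and *Cdh11* held, and those of *Cdh4* and *Ctnna1* were lost. That of *Cdh20*, which had passed the filter only through the WTD16 libraries, held too. The share of all genes called in that fit is not reported here. In these bulk samples more RNA per cell cannot be told apart from more cells that express a gene.

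The steepest change was that of *Cdh20*, a type II cadherin of the nervous system (chromosome 1, 104768529 to 104995481, plus strand, mm10). It held 14, 19 and 13 counts in the WTD16 libraries, or 3.20, 4.51 and 2.83 CPM, against 4, 0 and 0 counts in the WTC16 libraries. The groups did not overlap, and all untreated counts came from replicate 1. The ratio of summed counts was 11.4 with a 95% exact counting interval of 4.17 to 43.7, which covers counting error only. In the fit the log2 fold change was 3.40 (SE 0.60, edgeR adjusted p = 4.77e-05). *Cdh20* was tested only because its WTD16 libraries passed the filter, so a high value there was a condition of this test. Without WTC16 replicate 1 no untreated count was left, so the fitted log2 value of 7.01 (edgeR adjusted p = 3.72e-06) has no interpretable size. Without the pair of libraries that stood apart the log2 fold change was 2.62 (edgeR adjusted p = 0.00769).

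The promoter of *Cdh20* is printed because this gene gave the largest fold change of the members, and that of *Jup* because it is a member with a promoter entry whose level was not called in this response. Both are the 250 bases before the RefSeq start (GRCm38.p6), 5′ to 3′ on the gene's strand, with the homeodomain core ATTA and its reverse complement TAAT in capitals:
Cdh20 (chr1:104768270-104768519, plus strand): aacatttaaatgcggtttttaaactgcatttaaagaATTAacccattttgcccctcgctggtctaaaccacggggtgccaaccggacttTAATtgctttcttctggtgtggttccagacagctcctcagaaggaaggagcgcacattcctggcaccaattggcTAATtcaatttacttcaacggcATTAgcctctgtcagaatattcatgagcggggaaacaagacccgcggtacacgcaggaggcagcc
Jup (chr11:100397791-100398040, minus strand): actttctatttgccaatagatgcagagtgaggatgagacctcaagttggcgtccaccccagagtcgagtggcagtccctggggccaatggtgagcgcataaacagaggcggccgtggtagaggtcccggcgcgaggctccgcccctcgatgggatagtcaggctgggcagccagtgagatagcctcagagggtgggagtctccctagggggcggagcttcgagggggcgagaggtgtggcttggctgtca
The *Cdh20* window held 4 copies of the core and the *Jup* window none. At least 1 copy was present in 54.9% of the 32851 RefSeq promoter windows of this length, and at least 4 copies in 9.62%. The longer motif TAATTA, which reads the same on both strands and holds both core words overlapping, was absent from both windows and present in 4.84% of all windows. The motif TAATTG or its reverse complement CAATTA, which contain the core words, occurred once in the *Cdh20* window and in 7.17% of all windows. Of the other members with an entry, *Ctnnd2* had no copy of the core, and the pair of *Ctnnd1* windows had 0 and 4 copies. The G and C content was 47.6% for *Cdh20* and 62.0% for *Jup*, beside a median of 52.4% over all windows. These are letter matches and show no binding.

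*Cdh11*, a type II cadherin of mesenchyme (chromosome 8, 102632095 to 102785642, minus strand), rose from a low base. It measured 7.54, 6.89 and 7.61 CPM in the WTD16 libraries and 1.43, 1.36 and 2.24 CPM in the WTC16 libraries. Every treated library lay above every untreated one. The log2 fold change was 2.11 (SE 0.30, edgeR adjusted p = 5.56e-07), a level 4.32-fold as high with a 95% interval of 2.84 to 6.58. No alternative setting ended this call.

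*Cdh4*, R-cadherin, a type I cadherin first known from the retina (chromosome 2, 179442431 to 179899373, plus strand), was also higher. The WTD16 libraries held 10.5, 11.6 and 9.78 CPM, against 6.66, 5.43 and 4.04 CPM in the WTC16 libraries. The groups were apart, with the lowest untreated value in WTC16 replicate 3, a library that stood apart. The log2 fold change was 0.99 (SE 0.21, edgeR adjusted p = 0.000818). Without both libraries that stood apart it was 0.74, and the call was lost (edgeR adjusted p = 0.0715).

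*Cdh3*, a type I cadherin of basal epithelia and trophoblast (chromosome 8, 106510891 to 106557297, plus strand), had the most counts of the 4 cadherins that rose. It stood at 72.9, 58.9 and 67.6 CPM in the WTD16 libraries and 37.1, 34.1 and 43.3 CPM in the WTC16 libraries. The groups did not overlap. The log2 fold change was 0.80 (SE 0.09, edgeR adjusted p = 6.32e-09), and 0.97 (edgeR adjusted p = 3.38e-11) without both libraries that stood apart.

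*Cdh1* is the downstream neighbour of *Cdh3* in the genome. It lies on the same strand (chromosome 8, 106603351 to 106670246), 46.1 kb from the end of *Cdh3*, with 1 protein-coding gene model between them. Its values were 794, 809 and 790.5 CPM in the WTD16 libraries and 821, 816 and 807 CPM in the WTC16 libraries. The ranges overlapped. The fold change was 0.979 with a 95% interval of 0.926 to 1.04 (edgeR adjusted p = 0.813), at the highest counts of any member. In the same libraries the fold change of *Cdh3* was 1.74, with an interval of 1.53 to 1.99.

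*Cdh2*, the N-cadherin of mesoderm and neural tissue (chromosome 18), was not called. It measured 28.1, 24.2 and 25.7 CPM in the WTD16 libraries and 21.4, 19.7 and 23.3 CPM in the WTC16 libraries. The groups were apart by a small margin. The log2 fold change was 0.28 (SE 0.12), with an unadjusted p of 0.0229 and an edgeR adjusted p of 0.203.

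Among the catenins only *Ctnna1* passed the threshold, narrowly. Its WTD16 libraries held 393, 386 and 387 CPM and its WTC16 libraries 362, 354 and 347 CPM, with no overlap. The fold change was 1.10 (95% interval 1.04 to 1.16, edgeR adjusted p = 0.0449). That call was lost when any 1 of the 6 libraries was left out (edgeR adjusted p 0.0604 to 0.123), with the libraries of this comparison alone (0.13), without the low-count filter (0.105), with a replicate block (0.0729), without both libraries that stood apart (0.163) and in DESeq2 (0.148). The size stayed between 0.12 and 0.15 on the log2 scale.

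The other catenins were not called in the wild-type line. *Ctnnd1* averaged 255 ± 8.09 CPM in WTD16 and 259 ± 9.30 CPM in WTC16 embryoid bodies, a fold change of 0.982 (95% interval 0.919 to 1.05). *Jup* averaged 134 ± 5.39 and 129 ± 12.5 CPM in WTD16 and WTC16 embryoid bodies, a fold change of 1.04 (0.955 to 1.13). *Ctnnd2*, the neural relative of p120-catenin, held 6.17, 5.23 and 6.52 CPM in the WTD16 libraries and 4.28, 4.97 and 3.59 CPM in the WTC16 libraries. Its groups did not overlap, but at so few counts the fold change of 1.40 had an interval of 0.987 to 1.98 (edgeR adjusted p = 0.342).

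**Figure D2:**
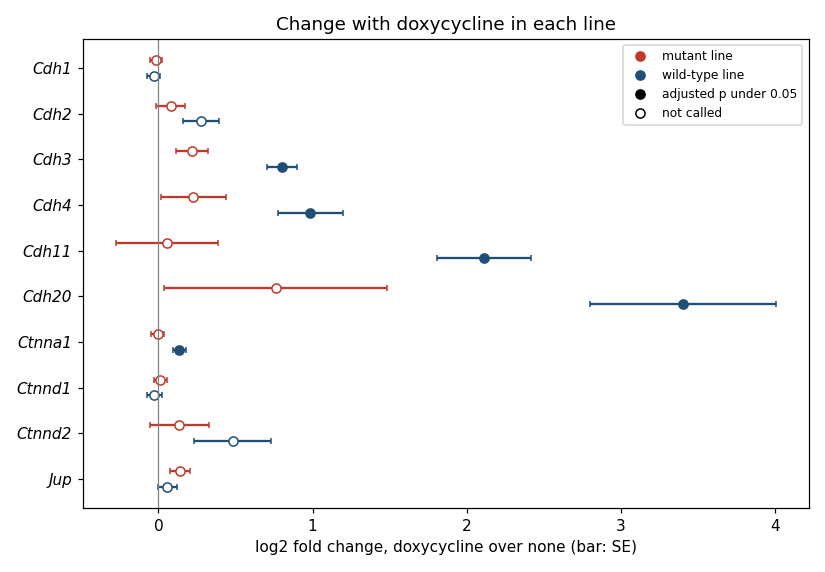
Log2 fold change with doxycycline (horizontal axis, doxycycline over none) of each member in the mutant line (red, upper point of each pair) and the wild-type line (blue, lower point), bars showing the SE, filled points called at an edgeR adjusted p under 0.05. In the wild-type line *Cdh3*, *Cdh4*, *Cdh11*, *Cdh20* and *Ctnna1* are filled, and in the mutant line no point is.

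In the mutant line doxycycline was followed by no called change among the members, where 0.0162% of all genes tested (2 genes) were called by edgeR. DESeq2 also called none of the members. By edgeR 2 members, *Cdh3* and *Jup*, had an unadjusted p under 0.05, as had 578 of the 12322 genes tested. *Cdh3* held 39.2, 44.0 and 35.0 CPM in the MUTD16 libraries and 35.6, 35.4 and 30.6 CPM in the MUTC16 libraries, which overlapped. Its log2 fold change was 0.22 (SE 0.10, edgeR adjusted p = 0.999). *Jup* held 118, 121 and 121 CPM in the MUTD16 libraries and 107, 106 and 113 CPM in the MUTC16 libraries. Those groups did not overlap, with a fold change of 1.10 (95% interval 1.01 to 1.20, edgeR adjusted p = 0.999).

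The cadherins that rose in the wild-type line had small or wide-ranged differences here. *Cdh11* held 2.63, 2.56 and 2.88 CPM in the MUTD16 libraries and 2.15, 3.46 and 2.14 CPM in the MUTC16 libraries, a fold change of 1.04 with an interval of 0.656 to 1.64. *Cdh4* held 7.67, 6.84 and 7.42 CPM with and 5.37, 7.33 and 5.99 CPM without doxycycline, a fold change of 1.17 (0.872 to 1.57). *Cdh20* held 6, 4 and 2 counts in MUTD16 and 2, 4 and 1 counts in MUTC16 libraries, a ratio of 1.73 with a 95% exact counting interval of 0.629 to 5.19. In all 3 genes the mutant groups overlapped. *Cdh1* had a fold change of 0.989 (0.935 to 1.05), *Ctnna1* of 0.997 (0.941 to 1.06), *Ctnnd1* of 1.01 (0.947 to 1.08), *Cdh2* of 1.06 (0.924 to 1.21) and *Ctnnd2* of 1.10 (0.841 to 1.43).

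Whether the response differed between the lines was tested as an interaction, the mutant response minus the wild-type response. It was called for *Cdh3* and *Cdh11*, 2 of 10 members, where 2.49% of all genes were called. *Cdh11* had a log2 difference of −2.06 (SE 0.46, edgeR adjusted p = 0.00382) and *Cdh3* one of −0.58 (SE 0.14, edgeR adjusted p = 0.00901), both lower in the mutant line. Neither was called by DESeq2 (adjusted p = 0.0736 for *Cdh11* and 0.12 for *Cdh3*). The call of *Cdh11* was lost without MUTC16 replicate 2, which held its highest untreated mutant value (edgeR adjusted p = 0.0606). That of *Cdh3* was lost without MUTD16 replicate 3 (0.0534) or WTC16 replicate 2 (0.0542).

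For *Cdh20* and *Cdh4* the difference of responses did not pass the threshold. The log2 difference was −2.64 for *Cdh20* (SE 1.08, edgeR adjusted p = 0.234) and −0.76 for *Cdh4* (SE 0.30, edgeR adjusted p = 0.211). Without WTC16 replicate 1 the WTC16 group had no *Cdh20* count, and the interaction then had an edgeR adjusted p of 0.0253. *Ctnna1* had −0.14 (SE 0.06, edgeR adjusted p = 0.259). The remaining members lay between −0.35 (*Ctnnd2*) and 0.08 (*Jup*).

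The lines also differed from each other before any doxycycline, as 45.5% of all genes tested did. Of the members 4 were higher in MUTC16 than in WTC16 embryoid bodies, *Cdh2*, *Ctnna1*, *Ctnnd1* and *Ctnnd2*, and *Jup* was lower. That is 5 of 10, close to the share of all genes. The members' median log2 fold change was 0.31, beside 0.003 over all genes. Each transgene stands in 1 line, so a difference between the transgenes and one between the lines cannot be told apart.

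*Cdh2* held 35.9, 38.5 and 33.4 CPM in the MUTC16 libraries and 21.4, 19.7 and 23.3 CPM in the WTC16 libraries, without overlap. The log2 fold change was 0.74 (SE 0.11, edgeR adjusted p = 1.01e-07). *Ctnnd2* held 9.23, 7.33 and 7.91 CPM in MUTC16 and 4.28, 4.97 and 3.59 CPM in WTC16 libraries, a fold change of 1.90 (95% interval 1.38 to 2.61, edgeR adjusted p = 0.000788). *Ctnnd1* held 329, 342 and 317 CPM in MUTC16 and 262, 267 and 249 CPM in WTC16 libraries, a fold change of 1.27 (1.19 to 1.35, edgeR adjusted p = 1.32e-08). For these 3 genes every mutant library lay above every wild-type one. Such separation was not counted over all genes, 45.5% of which were called between these groups.

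*Ctnna1* averaged 430 ± 4.86 CPM in MUTC16 and 354 ± 7.74 CPM in WTC16 embryoid bodies, a fold change of 1.21 (95% interval 1.14 to 1.29, edgeR adjusted p = 1.54e-07). *Jup* went the other way, with 107, 106 and 113 CPM in MUTC16 and 130, 141 and 116 CPM in WTC16 libraries, a fold change of 0.844 (0.774 to 0.921, edgeR adjusted p = 0.00107). Its groups were apart by less than 3 CPM. β-catenin itself (*Ctnnb1*), which is no member and was singled out after its values were seen, had 1175 ± 6.24 and 912 ± 11.5 CPM in MUTC16 and WTC16 embryoid bodies (fold change 1.29, edgeR adjusted p = 3.67e-11). *Cdh1* averaged 795 ± 14.7 CPM in MUTC16 and 815 ± 7.25 CPM in WTC16 embryoid bodies, a fold change of 0.976 (0.922 to 1.03, edgeR adjusted p = 0.499).

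With doxycycline in both lines, 9 of 10 members were called, against 44.4% of all genes. Without *Cdh20*, which passed the filter only through the WTD16 libraries, 4 of the other 9 members were higher and 4 lower. *Cdh2*, *Ctnna1*, *Ctnnd1* and *Ctnnd2* were higher in MUTD16 than in WTD16 embryoid bodies, and *Cdh3*, *Cdh4*, *Cdh11*, *Cdh20* and *Jup* were lower. This comparison shares the WTD16 libraries with the wild-type response, so the lower values of those 4 cadherins are not independent of their rise there. *Cdh3* averaged 39.4 ± 4.50 CPM in MUTD16 and 66.5 ± 7.07 CPM in WTD16 embryoid bodies (log2 fold change −0.76, SE 0.09, edgeR adjusted p = 1.64e-09). *Cdh11* averaged 2.69 ± 0.169 and 7.35 ± 0.399 CPM in MUTD16 and WTD16 embryoid bodies (log2 fold change −1.44, SE 0.27, edgeR adjusted p = 1.08e-05), and *Cdh20* 0.861 ± 0.452 and 3.51 ± 0.886 CPM. For *Cdh20* the ratio of summed counts was 0.244 (95% exact counting interval 0.118 to 0.468, edgeR adjusted p = 0.000409). *Cdh2* averaged 37.9 ± 0.571 CPM in MUTD16 and 26.0 ± 1.97 CPM in WTD16 embryoid bodies, a fold change of 1.46 (95% interval 1.26 to 1.69, edgeR adjusted p = 1.84e-05).

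The calls of 3 members here were fragile. *Jup*, at 119.8 ± 1.60 CPM in MUTD16 and 134 ± 5.39 CPM in WTD16 embryoid bodies (fold change 0.893, edgeR adjusted p = 0.027), lost its call without MUTD16 replicates 1, 2 or 3 or WTD16 replicate 1 (0.0537 to 0.123). *Cdh4*, at 7.31 ± 0.429 and 10.6 ± 0.934 CPM (log2 fold change −0.54, edgeR adjusted p = 0.0189), lost it without MUTD16 replicate 2 (0.0654), WTD16 replicate 2 (0.0736) or both libraries that stood apart (0.0635). *Ctnnd2*, at 8.97 ± 1.73 and 5.97 ± 0.671 CPM (log2 fold change 0.58, edgeR adjusted p = 0.0213), lost it without MUTD16 replicate 1 (0.163), WTD16 replicate 2 (0.0836) or both libraries that stood apart (0.0781). DESeq2 called none of the 3 (adjusted p 0.117 to 0.139). *Ctnnd1* was firmer, at 332 ± 8.57 and 255 ± 8.09 CPM in MUTD16 and WTD16 embryoid bodies (log2 fold change 0.38, SE 0.05, edgeR adjusted p = 7.99e-10). *Ctnna1* had a fold change of 1.10 (edgeR adjusted p = 0.00505), and *Cdh1* one of 0.985 with an interval of 0.931 to 1.04.

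**Figure D3:**
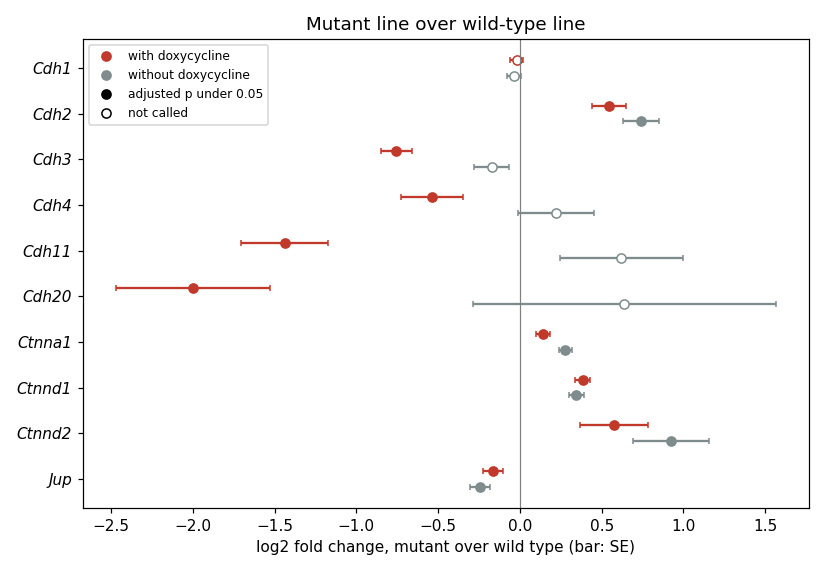
Log2 fold change of the mutant over the wild-type line (horizontal axis) for each member with doxycycline (red, upper point of each pair) and without it (grey, lower point), bars showing the SE, filled points called at an edgeR adjusted p under 0.05. *Cdh2* and the catenins *Ctnna1*, *Ctnnd1* and *Ctnnd2* lie right of 0 at both settings and *Jup* left of it, while *Cdh3*, *Cdh4*, *Cdh11* and *Cdh20* are filled only with doxycycline, all left of 0.

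The mixture of cadherin RNA was described as the share of each of the 6 cadherins in their summed counts per kilobase of exon, with no test. *Cdh1* made up 91.9% ± 0.527 in MUTD16, 92.8% ± 0.524 in MUTC16, 89.0% ± 0.834 in WTD16 and 93.5% ± 0.634 in WTC16 embryoid bodies (SD, n = 3). The share of *Cdh3* was 4.81% ± 0.536 in MUTD16 and 4.13% ± 0.339 in MUTC16, and 7.74% ± 0.831 in WTD16 and 4.57% ± 0.560 in WTC16 embryoid bodies. *Cdh2* took 2.51% ± 0.0633 in MUTD16 and 2.38% ± 0.137 in MUTC16, and 1.64% ± 0.123 in WTD16 and 1.40% ± 0.118 in WTC16 embryoid bodies. These shares depend on the scaling by exon length. As shares of raw counts *Cdh2* took 4.34% ± 0.106 in MUTD16 and 4.11% ± 0.231 in MUTC16 embryoid bodies. *Cdh3* then took 4.51% ± 0.506 and 3.88% ± 0.316, so the 2 did not differ beyond their spread. *Cdh4*, *Cdh11* and *Cdh20* together stayed small, with WTD16 shares of 0.748%, 0.421% and 0.446%.

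**Figure D4:**
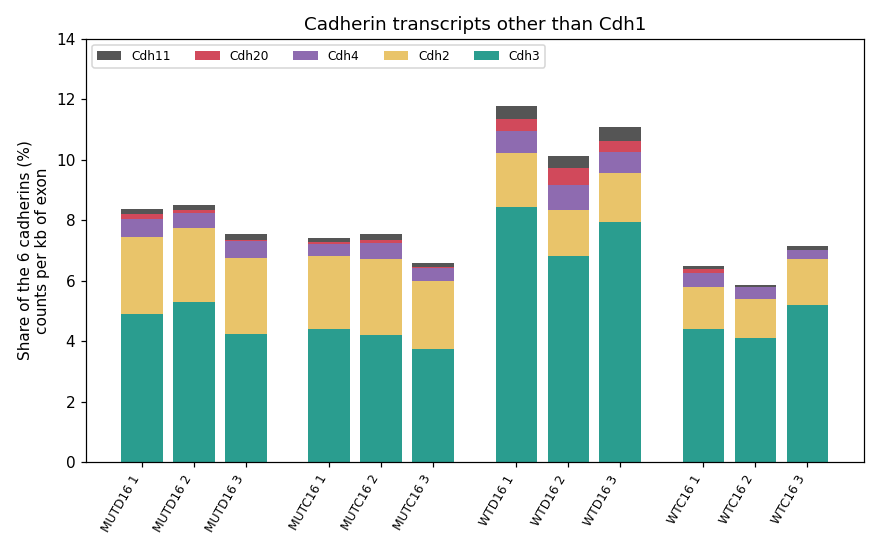
Share of *Cdh3*, *Cdh2*, *Cdh4*, *Cdh20* and *Cdh11* in the summed counts per kilobase of the 6 cadherins (vertical axis, percent, starting at 0) in each library, the rest being *Cdh1*. The 3 WTD16 bars are the tallest, mostly through *Cdh3*, and *Cdh2* takes a larger part of the mutant bars.

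Other parts of the adhesion machinery were read in the wild-type response by edgeR calls over lists, beside 5.32% called over all genes. The lists were drawn up for these genes, also with earlier results known. Of the other type I and type II cadherins 11 of 14 had too few counts to be tested, and none of the 3 tested was called, with a median log2 fold change of −0.15 beside −0.003 over all genes. Of 21 tested genes of the adherens junction plaque and nectins 1 was called (median 0.02), *Lima1*, an actin-binding protein that joins α-catenin. It averaged 89.0 ± 7.29 CPM in WTD16 and 105 ± 4.88 CPM in WTC16 embryoid bodies (log2 fold change −0.24, edgeR adjusted p = 0.0247). None of 17 genes of cadherin processing and turnover was called (median 0.04), and 2 of them had an unadjusted p under 0.05, as had none of the other cadherins.

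The desmosome list had 2 of 8 tested genes called, both higher (median 0.27, with 5.32% of all genes called). *Pkp3*, plakophilin 3, averaged 11.97 ± 1.18 CPM in WTD16 and 6.82 ± 1.42 CPM in WTC16 embryoid bodies (log2 fold change 0.81, edgeR adjusted p = 0.00405). *Dsp*, desmoplakin, averaged 35.4 ± 3.06 and 25.7 ± 0.191 CPM in WTD16 and WTC16 embryoid bodies (0.46, edgeR adjusted p = 0.0083). Of 15 regulators and markers of epithelial and mesenchymal state 1 was called (median 0.002), the E-cadherin repressor *Zeb2*. It averaged 5.96 ± 1.87 and 2.39 ± 0.883 CPM in WTD16 and WTC16 embryoid bodies (log2 fold change 1.31, edgeR adjusted p = 0.00245). Among 13 atypical cadherins and unclustered protocadherins 1 was called (median 0.11), *Celsr1*, a cadherin of planar cell polarity, at 13.1 ± 0.959 and 8.46 ± 0.905 CPM (0.63, edgeR adjusted p = 0.0139). Without both libraries that stood apart, *Dsp*, *Zeb2* and *Celsr1* were not called (edgeR adjusted p = 0.127, 0.135 and 0.0716), while 2 plaque genes, 1 desmosome gene and 1 processing gene were, in a fit added after seeing the data. In DESeq2 *Lima1*, *Pkp3*, *Dsp* and *Celsr1* were not called (adjusted p 0.0937 to 0.232). Single libraries also ended these calls, of *Lima1* (edgeR adjusted p 0.0644 to 0.163 without WTD16 replicates 1 or 3 or WTC16 replicates 1 or 2), *Celsr1* (0.0558 to 0.0823 without WTD16 replicate 2 or WTC16 replicates 1 or 2), *Dsp* and *Zeb2* (0.0765 and 0.0628 without WTD16 replicate 2) and *Pkp3* (0.0706 without WTC16 replicate 2).

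In the mutant line none of these lists held a called gene (edgeR, list medians of log2 fold change −0.19 to 0.06). An edgeR unadjusted p under 0.05 was found for 2 plaque genes and for 1 gene each of the desmosome, state and atypical cadherin lists. Over all genes tested it was found for 578. The difference of responses was called for 1 gene of the lists, *Celsr1* (log2 difference −0.88, SE 0.21, edgeR adjusted p = 0.00718).

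Between the untreated lines many genes of the lists were called, where 45.5% of all genes were. Of 21 plaque and nectin genes 11 were higher and 5 lower in MUTC16 embryoid bodies, among them *Actn1*, α-actinin (240.4 ± 1.22 CPM in MUTC16 and 149.5 ± 8.26 CPM in WTC16), and *Ajuba*, a LIM protein of junctions (178 ± 4.60 and 88.6 ± 8.79 CPM). Of 8 desmosome genes 4 were higher and 2 lower, including *Dsc2* (log2 fold change 0.94) and *Pkp2* (−0.31). Of 15 state regulators and markers 6 were higher and 5 lower. Among them *Vim*, vimentin, stood at 126 ± 8.66 CPM in MUTC16 and 55.1 ± 3.62 CPM in WTC16 embryoid bodies. *Cldn6*, a claudin of the early embryo, stood at 217 ± 3.39 and 109 ± 0.804 CPM. Of 17 processing genes 8 were higher and 2 lower, with the matrix protease *Mmp14* at 39.0 ± 5.18 and 16.5 ± 1.90 CPM. Of 13 atypical cadherins 6 were higher and none lower, including *Celsr1* (log2 fold change 1.47) and *Celsr3* (1.27). Of 3 other classical cadherins 1 was higher, *Cdh24* (0.90).

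With doxycycline in both lines, 44.4% of all genes were called. Of 21 tested plaque genes 10 were higher and 3 lower in MUTD16 than in WTD16 embryoid bodies, and of 8 desmosome genes 2 were higher and 2 lower. Of 15 state regulators and markers 4 were higher and 4 lower, and of 17 processing genes 7 were higher and 2 lower. Of 13 atypical cadherins 7 were higher and 1 lower, and of 3 other classical cadherins 2 were higher. The desmosome genes that were lower were *Pkp3* (log2 fold change −0.99) and *Evpl*, envoplakin (−1.06). *Pcdh17*, a protocadherin, had 4.89 ± 0.480 CPM in MUTD16 and 1.07 ± 0.309 CPM in WTD16 embryoid bodies (log2 fold change 2.18, edgeR adjusted p = 3.21e-06).

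Marker genes of the cell types such cultures can hold were read beside these results, with 5.32% of all genes called in the wild-type response. There 1966 of the 12322 genes tested had an edgeR unadjusted p under 0.05. Pluripotency markers were abundant, with *Pou5f1* at 1378 ± 51.2, 1326 ± 48.4, 1033 ± 43.7 and 1194 ± 27.6 CPM in MUTD16, MUTC16, WTD16 and WTC16 embryoid bodies. In the wild-type line the summed level of 8 pluripotency markers was 5034 to 5069 CPM in WTD16 and 5279 to 5582 CPM in WTC16 libraries, with 1 gene higher and 2 lower of 8 tested, and 6 called without both libraries that stood apart. The 10 markers of mesoderm and primitive streak summed to 32.0 to 40.9 CPM in WTD16 and 12.4 to 16.8 CPM in WTC16 libraries. Most of that sum was *Eomes*, at 28.9 ± 5.34 CPM in WTD16 and 9.38 ± 2.21 CPM in WTC16 embryoid bodies. The next highest mean was that of *Kdr* in WTD16 embryoid bodies, 2.33 CPM. Apart from *Eomes* the means went both ways, with *Kdr* higher and *T* lower in WTD16 than in WTC16 embryoid bodies. Only 2 of the 10 markers were tested, and 1 was called higher, *Eomes*. *Msgn1* had no count in either group and *Foxf1* none in WTC16. The 8 neural markers summed to 57.0 to 62.9 and 53.6 to 58.8 CPM in WTD16 and WTC16 libraries, with 1 of 3 tested higher (*Pax6*) and *Neurog2* at 0 in WTC16. The 10 endoderm markers summed to 16.9 to 19.2 and 20.2 to 23.5 CPM with none of 4 called, 3 at an unadjusted p under 0.05, and none at 0 in both groups. Trophoblast (6.63 to 8.08 and 6.33 to 7.61 CPM, *Elf5* and *Tpbpa* at 0 in both) and fibroblast markers (21.6 to 22.2 and 18.3 to 36.1 CPM, *Lum* at 0 in WTD16) had no called gene of 2 and 5 tested, and 0 and 1 at an unadjusted p under 0.05. The part of these cells in the cadherin changes was not tested.

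Markers also differed between the lines in their response, alongside *Cdh3* and *Cdh11*, where 2.49% of all genes did. The mutant response minus the wild-type response was −1.58 on the log2 scale for *Eomes* (edgeR adjusted p = 4.08e-07), 1 of 2 tested mesoderm markers, and −1.36 for *Pax6* (edgeR adjusted p = 0.0046), 1 of 3 neural markers. Of 8 pluripotency markers *Sall4* was lower by this measure (−0.72, edgeR adjusted p = 4.03e-09) and *Pou5f1* higher (0.26, edgeR adjusted p = 0.00473). No endoderm, trophoblast or fibroblast marker was called by edgeR, of 4, 2 and 5 tested. Of these 2, 0 and 1 had an edgeR unadjusted p under 0.05, beside 1590 of the 12322 genes tested. The part of these markers in the differences of *Cdh3* and *Cdh11* was not tested.

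Between the lines the neural sum was 190 to 213 CPM in MUTD16 and 194 to 210 CPM in MUTC16 libraries, against the wild-type sums above. It came mostly from *Nes*, nestin, at 188 ± 8.45 CPM in MUTC16 and 49.0 ± 3.20 CPM in WTC16 embryoid bodies. All 3 tested neural markers were higher in MUTC16 than in WTC16 embryoid bodies, as were *Cdh2* and *Ctnnd2* (45.5% of all genes called). Between MUTD16 and WTD16 embryoid bodies, where *Cdh2* and *Ctnnd2* were higher too, *Nes* was higher (log2 fold change 2.04), *Pax6* was lower (−0.64, edgeR adjusted p = 0.00685) and *Ncam1* was not called (0.33, edgeR adjusted p = 0.444), with 44.4% of all genes called. The pluripotency sum was 5797 to 5937 CPM in MUTD16 and 5865 to 6062 CPM in MUTC16 libraries. At both settings 4 of 8 were higher and 1 lower than in the wild-type line, but not the same genes. *Sall4* was higher in MUTC16 than in WTC16 (log2 fold change 0.355) and lower in MUTD16 than in WTD16 embryoid bodies (−0.364). The endoderm sum was 29.3 to 32.1 CPM in MUTD16 and 28.9 to 38.6 CPM in MUTC16 libraries, with *Afp* at 0 in MUTD16. Of 4 endoderm markers tested, 2 were higher and 0 lower than in the wild-type line at both settings, but the called pair was not the same. The mesoderm sum was 22.9 to 27.8 CPM and 22.3 to 27.6 CPM, with *Mesp1* and *Msgn1* at 0 in both. Of 2 mesoderm markers tested, *Eomes* was higher in MUTC16 than in WTC16 embryoid bodies (log2 fold change 0.97, edgeR adjusted p = 3.31e-06). It was lower in MUTD16 than in WTD16 embryoid bodies (−0.61, edgeR adjusted p = 0.000119), and the other was not called. Trophoblast markers summed to 6.39 to 9.21 CPM in MUTD16 and 6.20 to 9.45 CPM in MUTC16 libraries (*Tpbpa* at 0 in both), and fibroblast markers to 19.1 to 20.9 and 19.1 to 22.1 CPM (*Postn* at 0 in both). Between the lines 0 of 2 tested trophoblast markers were called. Of 5 fibroblast markers 1 was lower without doxycycline, and 1 was higher and 1 lower with it. Their part in the line differences was not tested either.

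The genes whose profile lay closest to each called member were named by the root mean square difference of log2 CPM over the 12 libraries, each gene centred on its own mean. For *Cdh11*, whose own spread on this scale was 0.73, they were *Ccnd2* (0.229), *Fgfr2* (0.25) and *Slc7a8* (0.26). *Ccnd2* had 8.44 CPM in MUTD16, 11.1 in MUTC16, 27.3 in WTD16 and 7.03 in WTC16 embryoid bodies. For *Cdh3* (own spread 0.391) they were *Ifitm2* (0.141), *Slc4a11* (0.171) and *Ing2* (0.176). For *Cdh4* (0.394) they were *Sh3bgrl2* (0.191), *Lama1* (0.192) and *Capn2* (0.195), and for *Cdh20* (1.10) they were *Ptges* (0.596), *Pcsk1n* (0.62) and *Ccnd2* (0.623). *Ctnna1* (0.116) had *Rbbp7* (0.0368), *Mettl9* (0.0368) and *Rpn2* (0.039). For *Ctnnd1* (0.186), looked up although it was not called in the wild-type response, they were *Ctnnb1* (0.0352), *Zfp207* (0.0384) and *Sep-11* (0.0402), at nearly equal distances.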

How the data were processed

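Raw counts of reads per gene symbol, as deposited by the authors, were used for 12 libraries. Per the submitters' processing notes Trimmomatic 0.33, TopHat2 2.1.1, limma and the mm10 genome were used, without roles. The way of counting and its use of strand are not stated in those notes or the labels, so overlapping genes can share counts. *Ctnnd1* shares 4482 exon bases with the gene model *Gm28635*, and *Ctnna1* shares 95 with *Lrrtm2* on the other strand. Groups came from the sample titles. No replicates agreed within sampling noise (lowest chi-square per degree of freedom 1.11). Libraries were made with the TruSeq kit, per the labels.

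All genes were fitted together with edgeR 4.0.16 (R 4.3.3) by the quasi-likelihood test with TMM scaling, the filterByExpr filter (minimum count 10, which is 2.18 CPM, and total 15) and 1 mean per group over all 12 libraries. P-values were adjusted by Benjamini-Hochberg over the 12322 genes tested in each comparison, and called under 0.05. SEs are the log2 fold change over the square root of F and can be too small at few counts. At this depth small changes of rare transcripts were not detectable. Exon lengths and positions came from GENCODE M21 (mm10), promoter sequences from RefSeq (GRCm38.p6, matched for 4 of 10 members). Likeness used edgeR log2 CPM with a prior count of 2. The fit was tested on simulated counts. Named are all members, *Lhx1*, and the called genes of each list with the lowest adjusted p, at most 3 for the wild-type line's doxycycline comparison and at most 2 for every other, and 3 profile neighbours of each member called there. Of these, *Vasp*, *Cdh10*, the pluripotency markers other than *Pou5f1* and *Sall4*, and the endoderm and fibroblast markers are given as counts only, and 1 further gene is not reported here. The libraries that stood apart, *Ctnnb1* and the profile neighbours of *Ctnnd1* were singled out after values were seen. The members and lists were chosen with earlier results of these data known. Alternatives were RLE scaling, no filter, DESeq2 1.42.0, only the libraries compared, a replicate block and each library left out.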

Additional observations from a re-analysis of the deposited data

Results flagged for a closer look

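The response of *Cdh3* and of *Cdh11* to doxycycline differed between the lines by the test of the difference itself. For *Cdh3* the mutant response minus the wild-type response was −0.58 on the log2 scale, made of 0.22 in the mutant line and 0.80 in the wild-type line. For *Cdh11* it was −2.06, made of 0.05 in the mutant line and 2.11 in the wild-type line. The markers *Eomes* (−1.58), *Pax6* (−1.36), *Sall4* (−0.72) and *Pou5f1* (0.26) also had called differences of response, and their part in those of *Cdh3* and *Cdh11* was not tested. DESeq2 called neither cadherin difference, and each was lost by edgeR without 1 or 2 single libraries.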

How the results depend on the processing

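No called member value changed its direction under any alternative tried, and 10 values that were not called changed sign. Of 637 recomputed member values 605 kept their side of the threshold, 30 lost a call and 2 gained one, both for *Cdh20* without WTC16 replicate 1 (log2 4.25 for MUTC16 against WTC16, and −6.25 for the difference of responses), where the WTC16 group held no count, so that these fitted sizes are no bound. In the wild-type response 4 members were called whichever single library was left out, and 3 without both libraries that stood apart. These counts include *Cdh20*, which passed the main filter only through the WTD16 libraries. For the difference of responses 1 to 3 were called with 1 library left out and 0 with DESeq2, and the cause was not tested. In the mutant response 0 were called under every alternative, between the untreated lines 5 or 6, and between the treated lines 6 to 9. Same-numbered libraries of different groups showed no common deviation (median correlation −0.0445, 2 of 18 pairs over 0.1). With so few libraries per group, each centred on its group mean, this cannot exclude a pairing by number. The replicate block gave 4 called members in the wild-type response, 0 in the mutant response, 2 for the difference, and 5 and 9 between the lines. Over all genes it called 618 in the wild-type and 2 in the mutant response. The shares of all genes called in the other alternative fits are not reported here. The RLE scaling moved the median of all genes by less than 0.01 on the log2 scale. Libraries of 4289984 to 4850393 counts limit what can be said of *Cdh20*, *Cdh11*, *Cdh4* and *Ctnnd2*.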
